A study of Homo sapiens with 4 samples.

Results

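The genes examined here were 49 genes of DNA replication and nucleotide synthesis in H1299, a human cell line long in culture that was grown from a non-small-cell lung tumour. They were taken by gene name and not by their values. All 424 listed transcripts of these genes, among 227368 transcripts in the series, were followed. The cells were cultured with 5 μM HgCl2, or with the ethanol (EtOH) solvent alone, for 48 h. Poly-A RNA was sequenced, and each group has 2 columns of counts, labelled replicates 1 and 2. The treatment text of the labels gives HgCl2 for all 4 samples, whereas the titles and the study's methods keep the EtOH cells free of it, and the titles are used here. H1299 is a single cell line, so other lung cells were not sampled.

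Each cell cycle starts with the loading of the MCM helicase onto origins by the origin recognition complex (ORC), CDC6 and CDT1, which geminin (GMNN) holds in check. The kinase CDC7 with its partner DBF4, and then CDC45 and the GINS complex, turn the loaded MCM ring into a working helicase. Primase and the DNA polymerases copy the strands, RPA covers single-stranded DNA, the RFC complex loads the sliding clamp PCNA, FEN1 and LIG1 join Okazaki fragments, and ribonucleotide reductase (RRM1 and RRM2), thymidylate synthase (TYMS) and thymidine kinase (TK1) supply the building blocks. Many of these genes are textbook targets of the E2F transcription factors, which act at the entry into S phase.

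Promoters are shown first, because of this textbook link. The RefSeq promoters (GRCh38.p14) of the member genes were searched on both strands for TTTCCCGC, TTTCGCGC, TTTGCCGC and TTTGGCGC, the common letters of an E2F site. The window runs from 250 bases before to 50 bases after the start of the gene. A promoter was found for 43 of the 49 genes, and 22 of the 43 (51.2%) held such letters, against 3.99% of 27305 gene names. The promoters of MCM6 (chr2:135876444-135876693, minus strand) and GINS2 (chr16:85688955-85689204, minus strand) are given as examples that hold E2F letters before the start. Both genes had well counted transcripts that were lower in HgCl2. Not all such genes held the letters: FEN1 was well counted and lower too, and its promoter held 0 of them. The 250 bases before the start are written 5′ to 3′ with E2F letters in capitals.

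MCM6: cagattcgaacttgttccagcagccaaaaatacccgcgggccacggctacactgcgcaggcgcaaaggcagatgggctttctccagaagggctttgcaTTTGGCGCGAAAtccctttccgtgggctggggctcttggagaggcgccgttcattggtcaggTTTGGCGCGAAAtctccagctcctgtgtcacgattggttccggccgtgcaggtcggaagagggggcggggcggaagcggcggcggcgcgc

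GINS2: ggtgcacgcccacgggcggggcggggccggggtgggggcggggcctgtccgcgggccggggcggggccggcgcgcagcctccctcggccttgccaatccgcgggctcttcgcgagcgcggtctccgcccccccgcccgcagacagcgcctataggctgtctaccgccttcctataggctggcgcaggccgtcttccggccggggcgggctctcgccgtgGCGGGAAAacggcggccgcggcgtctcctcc

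In the MCM6 promoter the same run stands at 2 places, and in each TTTGGCGC overlaps the reverse of TTTCGCGC. The GINS2 promoter holds the reverse of TTTCCCGC once. The letters were found in 4 of the 8 genes with a promoter whose summed counts were at least 2-fold lower in HgCl2 and in 7 of the 15 other genes with a summed value, so the share was similar on both sides. MCM6, with a summed log2 fold change of -0.72, is among the 15 others. Of the other letters searched, CCAAT (NF-Y) was held by 58.1% of the 43 genes and by 39.7% of all gene names, and TTTGAA (CHR) by 4.65% and 18.2%.

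The total counts lay between 4720978 and 5053120 per column. Between the 2 columns of a group the counts varied by less than sampling noise: the variance of their difference was 0.505 times (EtOH) and 0.516 times (HgCl2) that of independent counts. Each group was therefore counted as 1 sample with the mean of its columns as its value. No difference given here has a replicate check, no p-value is given, and intervals of fold changes are exact (Clopper-Pearson, 95%) and cover counting error only. In bulk RNA, fewer cells in S phase and less RNA per cell cannot be told apart. Of the markers of H1299, VIM had 501 to 628 counts, NRAS 5305 to 6213 and CD44 90 to 104. KRT8 had 53 and 58 in EtOH and 4 and 4 in HgCl2, and KRT18 23 and 24 against 18 and 31. Meanwhile PTPRC, CD3E, VWF, SFTPC, SFTPB and ALB, markers of blood, endothelium, alveolar epithelium and liver, were at 0 in every column. Of these, CD3E, SFTPB and ALB have 0, 4 and 72 own bases on their canonical transcripts, too few for a 0 to be read. For SFTPC no such value was at hand, so its 0 is not read either. PECAM1 (endothelium) was at 1 to 5 counts, and the fibroblast markers COL1A1 and COL3A1 at 3 to 18 and 0 to 2. Markers of dividing cells had fewer counts in HgCl2. The proliferation marker MKI67 had 123 and 122 counts in EtOH and 13 and 23 in HgCl2. TOP2A had 10821 and 11075 against 6285 and 6341, and CCNB1 521 and 490 against 360 and 377. The part of these markers in the results below was not tested.

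Which members could be measured was set first. The counts are given per transcript, and the bases of a transcript that no other listed transcript covers are called its own bases here. Of the 49 canonical transcripts, the one reference transcript the annotation chooses per gene, all 18 with at least 150 own bases had a count, whereas of the 31 with fewer own bases 3 had one. Those 3 were MCM2, TYMS and RRM1. Own bases were found with strand ignored. The study's text calls the sequencing directional, the named library kit does not mark strand, and the strand setting of the counting is not given in the sources used here. Of 894 transcripts with at least 300 bases that are their own only when strand is kept apart, 27.1% had a count, against 1.10% of those with no own base on either reading and 39.6% of those with at least 300 own bases on both. Whether reads of overlapping genes on opposite strands were told apart was not settled by these values. For MCM2 the own bases were 0 with strand ignored and 329 with strand kept apart. The canonical transcripts of PCNA, TK1, RFC2, LIG1, POLD1 and ORC1 have between 0 and 44 own bases, and these 6 genes had 0 counts on every transcript. Over all protein-coding gene names 41.2% had 0 counts. A member at 0 is thus listed at 0 and not read as a silent gene, and a transcript's counts are not the level of its gene.

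**Figure D1:**
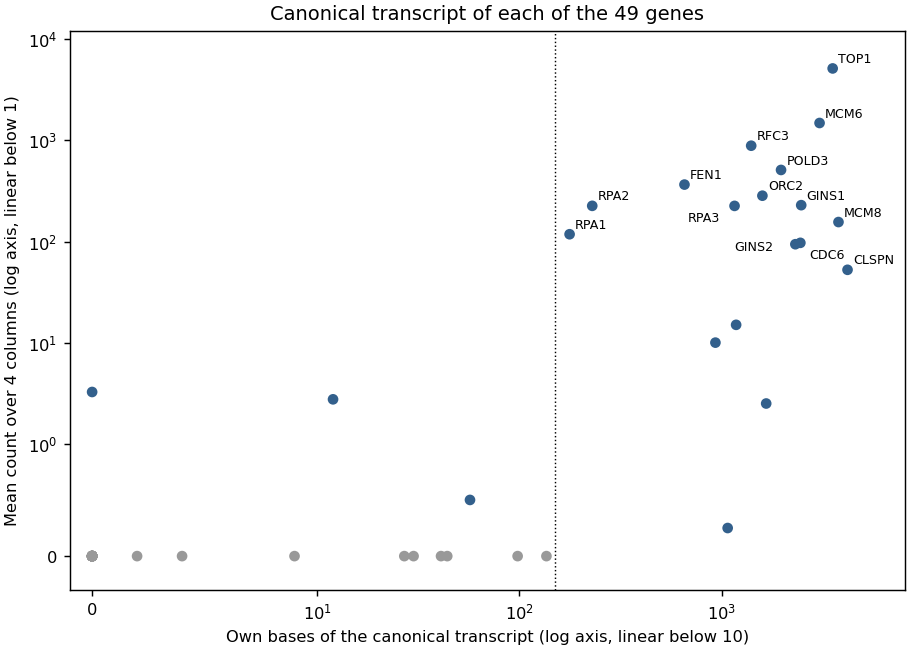
Each point is the canonical transcript of 1 of the 49 genes, with its own bases on the horizontal axis and its mean count over the 4 columns on the vertical axis, both on log axes that turn linear near 0. Grey points have no count. All 18 transcripts to the right of the dotted line, at 150 own bases, have counts, and 28 of the 31 to its left have none.

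Of the 424 member transcripts, 113 had a count and 50 reached a mean FPKM (fragments scaled to transcript length and library depth) over 1 in EtOH or HgCl2 and were fitted. That level was reached in EtOH and HgCl2 by 26, only in EtOH by 17 and only in HgCl2 by 7. Those that passed in a single group had to differ. The 63 other transcripts with a count had a mean of at most 16.5 counts in either group. Of the 50 tested transcripts, 6 were at least 2-fold higher in HgCl2 (12.0%, against 19.2% of all 17547 tested transcripts) and 21 at least 2-fold lower (42.0%, against 34.1%). These calls use the fitted fold. A mean of 3 counts or fewer stood in one of the groups for 2 of the 6 and 17 of the 21. Called against 3 counts in that group, 6 stayed at least 2-fold higher (16.8% of all tested transcripts) and 17 at least 2-fold lower (22.0%). Counts of calls by role and by list below use this floor of 3 counts, and the others the fitted fold. The median log2 fold change, HgCl2 over EtOH, was -0.71 over the member transcripts and -0.21 over all tested transcripts. The median of all tested transcripts moved with the counts, from -1.58 under a mean of 10 counts to 0.21 at 200 counts and above. Where the mean reached 30 counts, the 19 member transcripts had a median of -0.11 and all 7107 a median of 0.21. Of these 19, 0 were at least 2-fold higher and 2 at least 2-fold lower, where 15.5% and 9.53% of all transcripts of that class were. Where it reached 200 counts, 0 of 9 were higher and 1 was lower, against 4.65% and 2.03% of 2712.

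**Figure D2:**
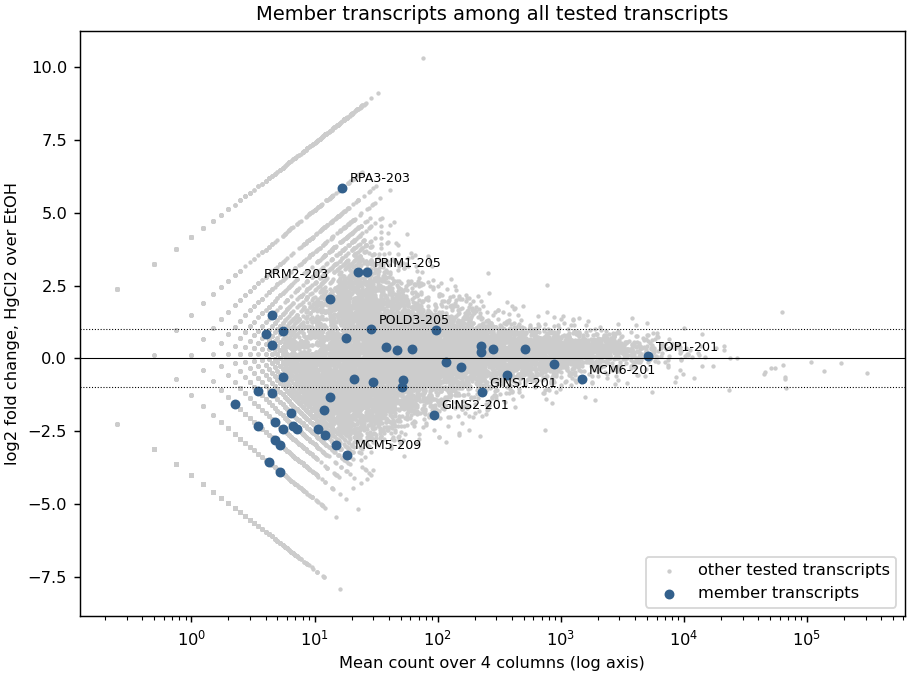
The log2 fold change of each tested transcript (HgCl2 over EtOH) is plotted against its mean count over the 4 columns on a log axis, with the 50 member transcripts in blue and all others in grey. Member transcripts with few counts spread to both sides, and those of TOP1 and MCM6, with the most counts, lie between the dotted lines that mark 2-fold.

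Summed over all transcripts of a gene, 28 member genes had a mean of at least 10 counts in one group. Of these, 2 were at least 2-fold higher in HgCl2, PRIM1 and RRM2, where 13.9% of all genes were. Of the 28, the 9 genes ORC4, ORC5, GMNN, MCM5, DBF4, GINS1, GINS2, RFC4 and CLSPN were at least 2-fold lower, where 25.1% of all 10366 genes were. Among these 9, ORC4, ORC5, MCM5, DBF4 and RFC4 had reached a mean of 10 counts in EtOH alone and so had to be lower. ORC5 had a mean of 3.0 counts in HgCl2 and was at least 6.35-fold lower against 3 counts. The median was -0.17 for the member genes and -0.05 for all genes.

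**Figure D3:**
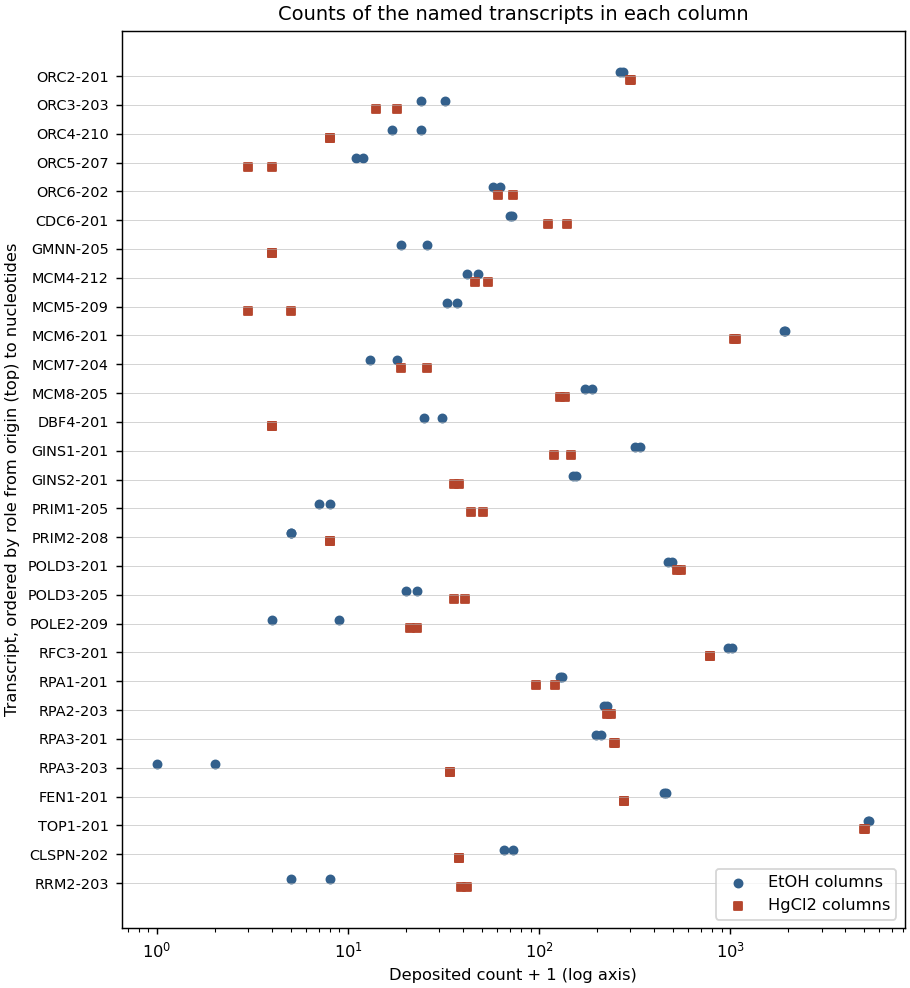
Deposited counts, plus 1 on a log axis, of the 29 named and fitted transcripts in the 2 EtOH columns (circles) and the 2 HgCl2 columns (squares), ordered from origin recognition at the top to nucleotide synthesis at the bottom. The columns of a group lie close together, and the groups stand well apart for, among others, MCM5-209, DBF4-201, GMNN-205, GINS1, GINS2, RPA3-203, PRIM1-205 and RRM2-203. As each group was counted as 1 sample, close columns are no replicate check.

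The ORC complex marks origins. Of its 11 fitted transcripts 0 were at least 2-fold higher and 5 lower, against 16.8% and 22.0% of all tested transcripts. The FPKM limit had been reached in EtOH alone by 4 of the 11. ORC2-201, its best counted canonical transcript, had 273 and 263 counts in EtOH and 302 and 297 in HgCl2, a log2 fold change of 0.30 (0.06 to 0.55). Its HgCl2 columns were above both EtOH columns, by less than 2-fold. ORC6 was counted through retained introns, since its canonical transcript has 9 own bases. ORC6-202 had 56 and 61 counts in EtOH and 72 and 60 in HgCl2 (0.32, interval -0.21 to 0.85), a difference within counting error. ORC6-205, with own bases in intron 4, had 71 and 71 counts against 34 and 31 (-0.98, interval -1.63 to -0.37), and ORC6-207, whose own bases lie in the same intron, had 31 and 38 against 38 and 44 (0.39, interval -0.30 to 1.09). The interval of ORC6-205 thus lay below 0, while that of ORC6-207 spanned 0. ORC4 and ORC5 were lower in each of their tested transcripts. Of these, ORC4-208, ORC5-207 and ORC5-203 had passed the FPKM limit in EtOH alone and so had to be lower. ORC4-210, which passed in EtOH and in HgCl2, had 16 and 23 counts in EtOH and 7 and 7 in HgCl2. ORC5-207 had 11 and 10 against 2 and 3, at least 3.17-fold lower against a limit of 3 counts. All own bases of these ORC4 and ORC5 transcripts lie outside the exons of the canonical transcripts. ORC3-203 had 31 and 23 counts against 13 and 17 (-0.70, interval -1.72 to 0.26).

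Among the 4 fitted transcripts of the loading factors and their inhibitor, 0 were at least 2-fold higher and 2 lower, against 16.8% and 22.0% of all tested transcripts. CDC6 was higher in HgCl2 on its canonical transcript. CDC6-201 (chromosome 17 from 40287879 to 40304657), whose own bases are 2421 bases of the 3′ UTR and 23 others, had 71 and 69 counts in EtOH and 138 and 110 in HgCl2, a log2 fold change of 0.97 (0.53 to 1.41), just under 2-fold. Its retained intron CDC6-206 had 10 and 9 against 2 and 1, and had passed the FPKM limit in EtOH alone. Geminin, the inhibitor of CDT1, was counted mainly on the retained intron GMNN-205, with 25 and 18 counts in EtOH and 3 and 3 in HgCl2, at least 6.49-fold lower. The protein-coding GMNN-206 had 3 and 3 against 4 and 6. CDT1 was not tested, with 5 and 5 counts on its canonical transcript in EtOH and 0 in HgCl2.

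Of 9 fitted MCM transcripts 1 was at least 2-fold higher and 1 lower, against 16.8% and 22.0% of all tested transcripts. The higher one, MCM4-211, had 3 and 2 counts in EtOH and 6 and 7 in HgCl2 (interval -0.76 to 4.41). It had passed the FPKM limit in HgCl2 alone, and the lower one, MCM5-209, in EtOH alone, so both had to differ. MCM6 carried most counts. MCM6-201 (chromosome 2 from 135839626 to 135876443, with 3041 own bases over many of its exons) had 1903 and 1931 counts in EtOH and 1038 and 1071 in HgCl2, a log2 fold change of -0.72 (-0.83 to -0.61). Its interval lay below 0, and of all transcripts with a mean of 200 counts or more 22.1% had an interval below 0. MCM5 was lower on both transcripts with more than 1 count. MCM5-209, a retained intron on chromosome 22 from 35410409 to 35424501, had 32 and 36 counts against 4 and 2, at least 10.3-fold lower, and the canonical MCM5-201, which was not tested, had 18 and 15 against 4 and 3. MCM4 was counted on retained introns and short transcripts. MCM4-212 had 41 and 47 counts in EtOH and 53 and 45 in HgCl2 (0.30, interval -0.32 to 0.92), a difference within counting error. MCM7-204, a retained intron, had 17 and 12 against 25 and 18. MCM2 and MCM3 had 4 to 6 counts in EtOH and 3 to 5 in HgCl2 in all, too few to compare. MCM8-205, of a helicase that acts outside the MCM2 to MCM7 ring, had 172 and 187 counts against 128 and 136 (-0.30, interval -0.64 to 0.03), and all 3771 of its own bases lie in the 3′ UTR.

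Of the genes that activate the helicase, 4 transcripts were fitted and 4 were at least 2-fold lower in HgCl2, against 22.0% of all tested transcripts. Of these, both DBF4 transcripts had reached the FPKM limit in EtOH alone and so had to be lower. GINS1 and GINS2 encode subunits of the GINS complex, which joins the MCM ring with CDC45. GINS1-201 (chromosome 20 from 25407673 to 25448563) had 337 and 315 counts in EtOH and 118 and 145 in HgCl2, a log2 fold change of -1.17 (-1.47 to -0.87). GINS2-201, from the gene whose promoter is printed above (chromosome 16 from 85676198 to 85688954), had 149 and 155 counts against 35 and 37, a log2 fold change of -1.93 (-2.50 to -1.40). Both were at least 2-fold lower, and no other member transcript with a mean over the columns of 30 counts or more was, and their own bases number 2468 and 2309. GINS3 and GINS4 had 1 to 4 counts in EtOH and 0 in HgCl2. DBF4-201, of the subunit that activates CDC7, had 30 and 24 counts against 3 and 3, at least 8.15-fold lower, and its 1177 own bases lie in the 3′ UTR. DBF4P1, a processed copy of DBF4 that is no member, had 113 and 109 counts in EtOH and 115 and 108 in HgCl2, so the division of reads between DBF4 and its copy is uncertain. CDC45, CDC7 and MCM10 had at most 2 counts in any column.

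**Figure D4:**
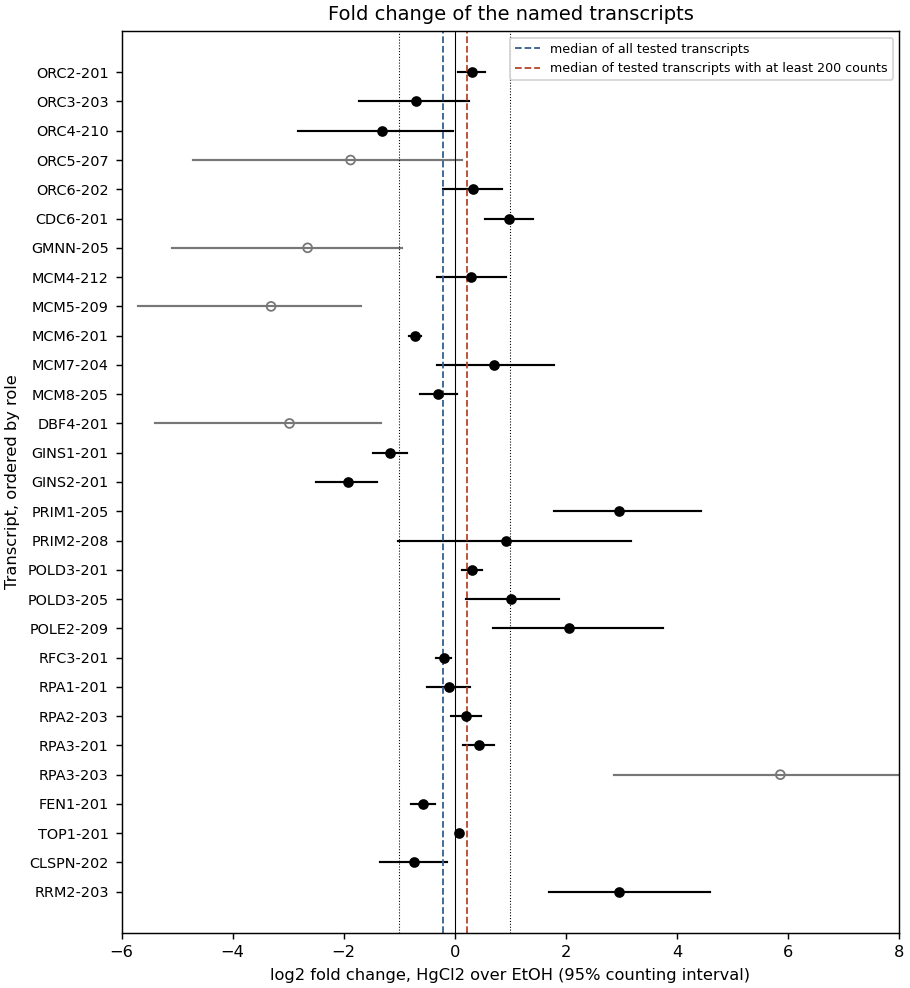
Log2 fold changes (HgCl2 over EtOH) of the 29 named transcripts with 95% counting intervals, in order of role. Open grey points have a group at or under 3 counts and are no measured folds, dotted lines mark 2-fold, and dashed lines mark the medians of all tested transcripts (-0.21) and of those with at least 200 counts (0.21). GINS1 and GINS2 lie to the left of 2-fold, and POLD3-201, RPA2-203, ORC2-201 and TOP1-201 lie near the medians.

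Of 10 fitted transcripts of the polymerase and primase genes 3 were at least 2-fold higher and 4 lower, where 16.8% and 22.0% of all tested transcripts were. The FPKM limit was reached by 4 of the 10 in EtOH alone and by 2 in HgCl2 alone. POLD3-201, the canonical transcript of a DNA polymerase delta subunit, had 471 and 492 counts in EtOH and 527 and 550 in HgCl2, a log2 fold change of 0.30 (0.13 to 0.49), close to the 0.21 of all transcripts with such counts. POLD3-205, a retained intron (own bases in intron 8), had 22 and 19 against 35 and 40, a log2 fold change of 1.01 (0.20 to 1.87). POLD3-202 and POLD3-209 had 14 and 11, and 10 and 9 counts in EtOH and at most 2 in HgCl2. Both had passed the FPKM limit in EtOH alone and so had to be lower. Primase shows the same division. PRIM1-205, a retained intron on chromosome 12 from 56743514 to 56752313 with 551 own bases in intron 6, had 7 and 6 counts in EtOH and 43 and 50 in HgCl2, a log2 fold change of 2.96 (1.79 to 4.43). PRIM1-209, annotated as protein-coding, had 18 and 20 against 6 and 4 (-1.76, interval -3.56 to -0.31). The summed log2 fold change of PRIM1 was 1.15, on the side of the retained intron. PRIM2-208 had 4 and 4 counts against 7 and 7.

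POLE2, a subunit of DNA polymerase epsilon, shows opposite directions within 1 intron. POLE2-207 and POLE2-209 have the same start and end (chromosome 14 from 49643564 to 49647360) and 3 exons each. They differ in own bases that lie in intron 18 of the canonical transcript, and those of POLE2-209 are given because its counts stand on them. They are read from GRCh38 on the minus strand, 5′ to 3′, with no letters singled out.

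POLE2-209, chr14:49646994-49647092: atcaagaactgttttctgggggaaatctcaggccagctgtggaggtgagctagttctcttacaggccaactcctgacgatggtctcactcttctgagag

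POLE2-207, with 125 own bases, had 21 and 16 counts in EtOH and 2 and 4 in HgCl2, at least 5.58-fold lower. POLE2-209, with 99 own bases, had 8 and 3 counts in EtOH and 22 and 20 in HgCl2, a log2 fold change of 2.05 (0.68 to 3.75). This value rests on few EtOH counts, and was 2.90 without EtOH replicate 1 and 1.52 without EtOH replicate 2. Summed over the gene the counts nearly balance, at a mean of 31.5 in EtOH and 26.0 in HgCl2. POLA1, POLA2, POLE and POLD1 had at most 5 counts in any column and were not tested.

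By the fitted fold, 5 of the 13 member genes with at least 2 tested transcripts, MCM4, POLD3, POLE2, PRIM1 and RPA3, held transcripts in opposite directions, and 22.8% of all 3294 such genes did. With the floor of 3 counts these were POLD3, POLE2 and PRIM1, 3 of 13, against 15.2%. A transcript that reached the FPKM limit in a single group had to differ, as both transcripts of PRIM1 did. Among transcripts over the limit in EtOH and in HgCl2, POLE2 was the 1 gene of 5 with opposite directions, against 9.09% of 1727 genes. By the fitted fold, of the 15 canonical member transcripts tested, 0 were at least 2-fold higher and 3 at least 2-fold lower (13.6% and 29.0% of all canonical transcripts tested). Their median was -0.20, against -0.11 for all canonical ones. The 35 others held all 6 that were higher and 18 that were lower (23.6% and 38.0% of all other transcripts tested). Their median was -1.13, against -0.36 for all others. Of the 35, 18 had a mean under 10 counts, and in that class all transcripts that are not canonical had a median of -1.54.

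The clamp loader and the single-strand binding protein RPA had well counted transcripts with small differences. Of 3 fitted transcripts of the clamp loader 0 were at least 2-fold higher and 1 lower, and of 5 of RPA 1 was higher and 0 lower. Over all tested transcripts 16.8% were higher and 22.0% lower. The lower one, RFC4-208, had passed the FPKM limit in EtOH alone, and the higher one, RPA3-203, in HgCl2 alone. RFC3-201 had 966 and 1017 counts in EtOH and 781 and 779 in HgCl2, a log2 fold change of -0.20 (-0.34 to -0.07). On the deposited FPKM scale it was -0.02. RFC4-208, a short transcript with 156 own bases, had 9 and 8 counts against 1 and 1, at least 2.57-fold lower, while RFC4-213, a retained intron under the FPKM limit, had 6 and 8 against 5 and 5. RFC5-201, also under the limit, had 6 and 5 against 8 and 9, and RFC5-209 had 3 and 5 against 5 and 5. RFC1 had 7 and 5 counts in all in EtOH and 3 and 3 in HgCl2. RPA1-201 had 130 and 127 counts against 120 and 95 (-0.11, interval -0.50 to 0.27), a difference within counting error whose sign was positive on the deposited FPKM scale, with no filter on low values and without HgCl2 replicate 2. RPA2-203 had 217 and 224 against 235 and 225 (0.20, interval -0.07 to 0.48), and RPA3-201 had 209 and 197 against 249 and 245 (0.43, interval 0.15 to 0.70). None of these canonical transcripts of the RPA subunits reached 2-fold. RPA3-203 did. This short protein-coding transcript (chromosome 7 from 7636975 to 7640026), whose 122 own bases lie in intron 5 of the canonical transcript, had 1 and 0 counts in EtOH and 33 and 33 in HgCl2, at least 12.2-fold higher against the limit of 3 counts. Of the 21 listed processed copies of member genes, 4 had a count and only DBF4P1 and TOP1P1 had more than 10 in all.

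FEN1, the flap nuclease of Okazaki fragments, was lower by less than 2-fold. FEN1-201 had 458 and 451 counts in EtOH and 277 and 276 in HgCl2, a log2 fold change of -0.57 (-0.79 to -0.36). Its interval lay below 0, as did that of 22.1% of all transcripts with a mean of 200 counts or more. CLSPN-202, of the checkpoint adaptor claspin, had 64 and 72 against 37 and 37 (-0.73, interval -1.35 to -0.14). It had passed the FPKM limit in EtOH alone and so had to be lower. CLSPN-201, which was not tested, had 15 and 17 against 1 and 0. The summed counts of CLSPN had a log2 fold change of -1.05. Topoisomerase I, which relaxes the DNA ahead of the fork and in transcription, had the most counts of the list. TOP1-201, its single transcript, had 5233 and 5314 counts in EtOH and 4999 and 5038 in HgCl2, a log2 fold change of 0.07 (0.02 to 0.13) that turned to -0.10 when scaled to total counts without the mitochondrial genome. Without TOP1 the member counts added up to 6146 and 6212 in EtOH and 4531 and 4541 in HgCl2. These sums are not scaled to the column totals, which were smaller in HgCl2, and they rest largely on a few genes. MCM6 alone had 1906 and 1938 counts against 1040 and 1073, while POLD3, with 517 and 531 against 565 and 593, went the other way.

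The nucleotide genes were hardly counted. TK1 was at 0, RRM1 had 1 to 3 counts and TYMS 7 and 5 in EtOH and 0 in HgCl2. RRM2-203 had 7 and 4 counts in EtOH and 38 and 41 in HgCl2, a log2 fold change of 2.96 (1.69 to 4.60), but it lies on chromosome 2 from 10141382 to 10211725, wholly downstream of the canonical RRM2 transcript, which has 0 own bases and 0 counts. All RRM2 transcripts together had 16 and 11 counts in EtOH and 41 and 43 in HgCl2, and RRM2-203 held 81.1% of these. RRM2-214, the next best counted, went the other way, with 5 and 4 counts in EtOH and 0 and 0 in HgCl2. The remaining RRM2 transcripts had at most 3 counts in any column. RRM2-203 had passed the FPKM limit in HgCl2 alone and so had to be higher.

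On the deposited FPKM scale, which divides by the whole transcript length, the 10 canonical transcripts with the highest levels in EtOH were, in order, TOP1 (257.1), MCM6 (93.0), RFC3 (78.3), FEN1 (41.0), RPA2 (25.3), POLD3 (23.1), RPA3 (18.3), GINS1 (17.9), ORC2 (11.4) and GINS2 (10.5). In HgCl2 the order of these 10 was TOP1 (305.7), RFC3 (76.9), MCM6 (63.9), RPA2 (33.0), POLD3 (32.3), FEN1 (31.2), RPA3 (27.8), ORC2 (15.9), GINS1 (9.03) and GINS2 (3.12). MCM6 thus stood above RFC3 in EtOH and below it in HgCl2, and FEN1 above RPA2 and POLD3 in EtOH and below them in HgCl2. Whether neighbours in this order differ was not tested, and the share of own bases, which differs between transcripts, limits a comparison of levels.

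Other genes of the pathway also stood on both sides. Of 34 tested transcripts of 35 further licensing and fork genes, 7 (20.6%) were at least 2-fold higher and 9 (26.5%) lower, where 16.8% and 22.0% of all tested transcripts were. The lower ones included the histone chaperones of replicating chromatin: ASF1B (ENST00000263382) had 66 and 58 counts in EtOH and 13 and 7 in HgCl2, CHAF1B (ENST00000314103) 71 and 94 against 32 and 27, and CHAF1A (ENST00000301280) 41 and 41 against 18 and 11. Higher were transcripts of the FACT subunits, SUPT16H (ENST00000555943) with 12 and 11 against 102 and 97 and the retained intron of SSRP1 (ENST00000293880) with 33 and 36 against 82 and 93, and a transcript of TIMELESS (ENST00000553532), of the fork protection complex, with 28 and 25 against 68 and 74. Of the 34 transcripts, 12 had reached the FPKM limit in EtOH alone and 6 in HgCl2 alone, and those had to differ.

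Of 41 tested transcripts of 34 further nucleotide synthesis genes, 8 (19.5%) were at least 2-fold higher and 8 (19.5%) lower, close to the 16.8% and 22.0% of all tested transcripts. The FPKM limit was reached by 9 of the 41 in EtOH alone and by 3 in HgCl2 alone, and those had to differ. CMPK1 (ENST00000371873), a kinase of pyrimidine nucleotides, had the most counts, 1386 and 1468 in EtOH and 2659 and 2792 in HgCl2, a log2 fold change of 1.08 (0.98 to 1.17). Retained introns of the purine synthesis genes GART (36 and 34 against 63 and 66) and ATIC (21 and 21 against 49 and 49) were higher too. ADSL (ENST00000623063), of the same pathway, had 50 and 55 counts against 11 and 13, the mitochondrial thymidine kinase TK2 (ENST00000527800) 29 and 36 against 5 and 8, and the retained intron of NME2 (ENST00000573262) 25 and 23 against 4 and 10. Of the 13 E2F and pocket protein genes, 9 transcripts were tested, with 1 higher and 1 lower (11.1% each, against 16.8% and 22.0%). The higher one was RB1 (ENST00000267163), the retinoblastoma protein that restrains E2F, with 19 and 12 counts in EtOH and 65 and 65 in HgCl2, a log2 fold change of 2.20 (1.40 to 3.11) that rests on 162 own bases. The lower one, of RBL2 (ENST00000564605), had 12 and 9 counts against 1 and 3. It is a retained intron with 0 own bases when strand is ignored, so what its counts rest on is uncertain. Of the 9 transcripts of this list, 3 had reached the FPKM limit in EtOH alone and 1 in HgCl2 alone, and those had to differ.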

How the data were processed

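Adaptors were trimmed by the authors (Trim Galore), who mapped reads to GRCh38 with STAR 2.5.4b and an Ensembl annotation and counted them per transcript with Rsubread; the counting options are not given in the sources used here. They deposited raw counts, and FPKM values made from these with DESeq2 1.26.0. Log2 fold changes were computed from the counts with edgeR 4.0.16 (glmQLFit, TMM, R 4.3.3) for the 17547 transcripts whose mean FPKM exceeded 1 in EtOH or HgCl2, or over counts summed per gene with a mean of at least 10 in one group. Gene names, own bases and coordinates are from GENCODE 44 on GRCh38, which held 98.3% of the identifiers. Named were the best counted transcript of each member gene, with a fold change where it passed the FPKM filter, those at least 2-fold changed with 30 counts in one group, those with 200 counts in one group and, of the other pathway lists, up to 3 higher and 3 lower ones by counts; further transcripts of member genes, and the split by canonical transcript, were added after values were seen. The members and lists were chosen with earlier results of these data known. Where a group had 3 counts or fewer, the fold is a lower bound, computed with 3 counts in that group. The fit was tested on simulated counts. No test across the conditions is given, as each group is 1 sample; edgeR was used for its fold changes. The total per column, 4720978 to 5053120 counts, leaves members under 30 counts with wide intervals. Alternatives used DESeq2 1.42.0 and limma 3.58.1. Some markers and sequences are not reported here.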

Additional observations from a re-analysis of the deposited data

How the results depend on the processing

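The filter on low values moved the counts of member transcripts most. With no filter, 22 were at least 2-fold higher and 58 lower (median log2 fold change -1.06, and -0.24 relative to all tested transcripts); with filterByExpr 12 were lower (-0.37 and -0.36); and, where every column had to reach 10 counts, 0 were higher and 3 lower (-0.20 and -0.20), of 22 tested. Scaling to total counts without the mitochondrial genome moved the median to -0.88, and limma on log2(FPKM + 1) gave 13 lower and a median of -0.42 (-0.39 relative). The median of all tested transcripts went from -0.21 to -0.38 and -0.03 in these 2 settings. Summed per gene with no filter, 5 were higher and 16 lower, with a median of -0.34 that was 0.28 above that of all genes; without the mitochondrial genome in the scaling 1 was higher, with a median of -0.34. With 3 counts as the floor of a group, chosen after seeing the data, 6 were higher and 17 lower. With RLE, DESeq2, total counts and each left-out column the counts lay between 5 and 7 higher and between 19 and 22 lower, and the median lay between -0.74 and -0.64 with a column left out. As the columns of a group differ by less than sampling noise, leaving out a column is no replicate check. Of the 29 named transcripts 7 crossed the 2-fold line in some setting: CDC6-201 reached 1.01 with DESeq2, POLD3-205 fell to 0.84 with at least 10 counts in every column, GINS1-201 was at -0.92, DBF4-201 at -0.98, ORC4-210 at -0.86 and ORC5-207 at -0.81 on log2(FPKM + 1), and PRIM2-208 reached 1.06 (no filter). RPA1-201, at -0.11, was at 0.03 with no filter, and TOP1-201, at 0.07, was at -0.10 without the mitochondrial genome. Of 365 alternative values of named transcripts 350 lay inside the counting interval. The replicate block left 6 higher and 21 lower. The deviations of same-numbered columns had a correlation of 0.036 over 7107 transcripts. Because these deviations are smaller than sampling noise, that value cannot settle whether the numbers pair the columns. Depth limits most members: 24 of 50 tested transcripts had a mean of at least 30 counts in one group.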
